A study of Homo sapiens with 8 samples.

Results

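Very broad RNAPII domains in vehicle-treated MDA-MB-453 cells are described here: stretches of 20000 bp or more that the peak caller returned as 1 unbroken region. MDA-MB-453 is a long-established line of human breast cancer cells of luminal, apocrine character. Cells of the control group received vehicle for 4 h and cells of the treated group received 600 nM of the CDK9 inhibitor CDDD11-8, labelled D11-8, for the same 4 h. RNAPII was measured by chromatin immunoprecipitation and sequencing in 2 libraries per group, which come from consecutive passages, so the groups share a single cell line, and p-values measure the spread between passages. Domains were selected on the vehicle lists: a region of 20000 bp or more in vehicle replicate 1 had to lie with 50% or more of its bases inside a single region of 5000 bp or more of vehicle replicate 2. Of 277 regions that long, 215 passed, out of 78306 regions in the vehicle replicate 1 list. They made up 0.275% of its regions and 5.73% of its covered bases. Since the vehicle lists chose the domains, vehicle values are given as a description, and the measurements that the choice did not use are those of the D11-8 lists and of the genome sequence.

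RNA polymerase II starts transcription at a gene's promoter and pauses a short way downstream. CDK9, the kinase of P-TEFb, phosphorylates the polymerase and the factors that hold it, which releases it into the gene body. At highly transcribed genes polymerase can be found along the whole gene and beyond the cleavage and polyadenylation site, where it continues until termination, so a broad RNAPII peak can span a promoter, a gene body and a termination zone.

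The genome sequence just before the start of 4 genes is shown first, because these are starts that long domains with an exon-free window spanned, from a domain that stayed fully covered with D11-8 (PNPLA2) to a domain covered to 38.2% and 32.6% (CLCA2) in D11-8 replicates 1 and 2. Each window holds the 200 bases before the start of the longest isoform in GENCODE release 44 and no annotated exon, on build GRCh37. Letters run 5′ to 3′ along the gene's strand, and capitals mark 3 short promoter motifs on either strand. The first is TATAAA, bound by the general initiation machinery. Another is CCAAT, bound by the NF-Y complex. The last is GGGCGG, bound by SP-family factors.
HNRNPC (minus strand), chr14:21737654-21737853: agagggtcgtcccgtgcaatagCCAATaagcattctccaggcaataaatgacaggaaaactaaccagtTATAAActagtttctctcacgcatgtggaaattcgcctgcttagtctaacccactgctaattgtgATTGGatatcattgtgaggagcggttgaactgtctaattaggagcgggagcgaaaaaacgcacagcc
PCBP2 (plus strand), chr12:53845686-53845885: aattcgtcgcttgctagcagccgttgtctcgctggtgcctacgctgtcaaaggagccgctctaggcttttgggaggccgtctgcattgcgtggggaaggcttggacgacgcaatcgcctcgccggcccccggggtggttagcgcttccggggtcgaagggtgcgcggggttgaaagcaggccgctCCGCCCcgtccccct
PNPLA2 (plus strand), chr11:818714-818913: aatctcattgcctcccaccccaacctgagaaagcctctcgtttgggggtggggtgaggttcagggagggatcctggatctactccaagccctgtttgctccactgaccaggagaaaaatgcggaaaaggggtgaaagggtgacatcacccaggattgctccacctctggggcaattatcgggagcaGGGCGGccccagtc
CLCA2 (plus strand), chr1:86889654-86889853: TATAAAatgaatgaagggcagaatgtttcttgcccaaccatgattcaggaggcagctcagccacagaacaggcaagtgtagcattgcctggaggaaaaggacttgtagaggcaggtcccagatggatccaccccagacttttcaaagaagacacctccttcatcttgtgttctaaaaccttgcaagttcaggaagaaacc
Among the 328 protein-coding starts inside domains, 41.8% had CCAAT in this window, 57.3% GGGCGG and 11.3% TATAAA. Over 19798 protein-coding promoters the shares were 29.4%, 51.6% and 7.74%, and over the 9997 with a peak within 300 bp of the start in both vehicle libraries they were 32.1%, 65.8% and 3.49%. Without the 24 histone genes, of which 13 held TATAAA, the remaining 304 domain starts had shares of 39.8%, 59.5% and 7.89%. A match describes letters in a window, not a bound site.

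Recurrent sequence was more frequent at the strongest summits of vehicle replicate 1 than at those of the other libraries. In 60 of its 215 domains (27.9%) the strongest summit sat in a 200-base window whose median 14-base word occurred 1000 times or more in the genome, compared with 9 of 215 (4.19%) in vehicle replicate 2, 1 of 209 (0.478%) in D11-8 replicate 1 and 5 of 206 (2.43%) in D11-8 replicate 2. Among all summits inside domains the shares were 24.4%, 17.9%, 12.9% and 13.7%, beside 14.5% of all consecutive 200-base windows of the domains. The part of read mapping in this difference between libraries was not tested.

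Domain length ran from 20082 to 76023 bp with a median of 25900 bp, and 8 domains reached 50000 bp. Chromosome 1 held 30 domains, chromosome 17 held 21 and chromosome 6 held 18. In vehicle replicate 2 the regions covered 96.1% of domain bases, the median domain was covered to 97.0% and the lowest to 75.3%. A single region of that library held a median of 88.0% of a domain, and 65 domains lay in 1 unbroken piece there. The 62 broad regions that did not pass were also occupied in vehicle replicate 2 but in shorter pieces: the TRPS1 region, the longest at 174854 bp, was covered to 98.7% by 9 pieces of which the largest held 24.3%.

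The domains were gene domains in most cases. A protein-coding gene overlapped 208 of them, 5 held lncRNA genes only and 2 held neither, and 74.3% of domain bases lay inside protein-coding genes. Longer stretches can meet more genes by length alone. A protein-coding start lay in 157 of the 215 domains. Among shorter replicated regions it lay in 450 of 732 from 10000 bp up to 20000 bp and in 967 of 1758 from 5000 bp up to 10000 bp. A domain touched 1 protein-coding gene in 54 cases, 2 in 82 cases and 3 or more in 72, up to 7. Of the 154 domains with several genes, 121 had genes on both strands. The named protein-coding gene with most bases in the domain, called the leading gene below, was on the plus strand 107 times and on the minus strand 101 times. In 3 domains, at HOXC6, GATC and OIP5, an unnamed gene held more bases than the leading gene. The 206 distinct leading genes had a median length of 21397.5 bp and a median of 11 exons, beside 24855.5 bp and 7 exons over 19834 protein-coding genes. Of the leading genes, 100 lay wholly inside their domain.

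In 100 of the 208 domains with a protein-coding gene the domain's edges both lay outside the leading gene. Among the 124 domains that held the leading gene's start, the upstream edge had a median position of -3382.5 bp from it, with negative values upstream, and in only 4 was it within 1000 bp of it. Among the 177 domains that held the leading gene's end, the domain ran a median of 8752 bp past it (quartiles 5598 and 13276 bp), and in 143 it ran 5000 bp or more past it. The farthest reach was 46728 bp past the end of TRIM13, in a stretch that the lncRNA gene DLEU2 overlaps. Sorted by the leading gene, 100 domains held both ends of it, 77 its end without its start, 24 its start without its end and 7 lay inside the gene.

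**Figure D1:**
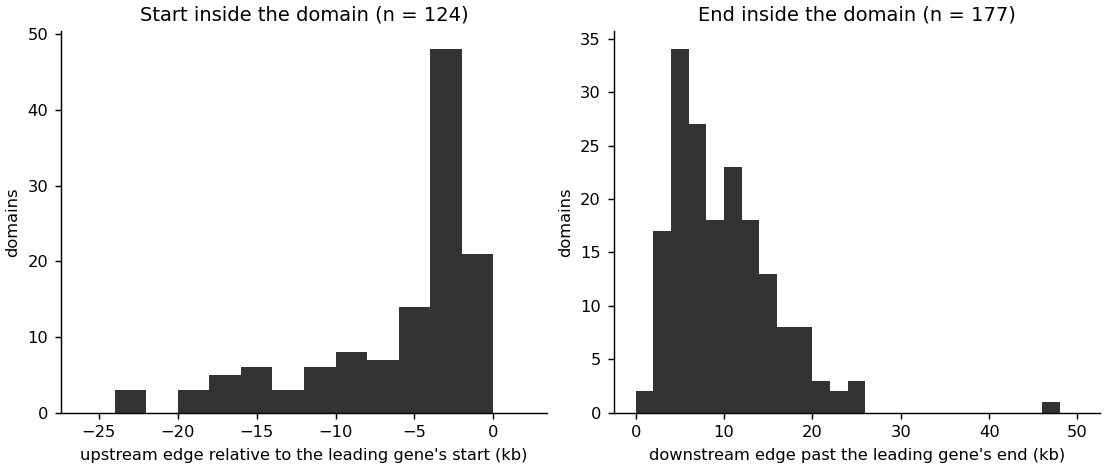
Number of domains (y axis) by the position of the domain's edges in kb (x axis). Left, upstream edge relative to the start of the leading gene for the 124 domains that hold the start; right, downstream edge past the end of the leading gene for the 177 that hold the end. Upstream edges gather within a few kb of the start, with a median of -3382.5 bp, while downstream edges spread farther, with a median of 8752 bp past the end.

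Within a domain the vehicle peak was not smooth. Vehicle replicate 1 had 24 to 121 summits per domain (median 39) and vehicle replicate 2 had 20 to 110 (median 36). Neighbouring summits were a median of 624 and 628 bp apart in the 2 vehicle libraries, and 628 and 623 bp apart in the parts of domains still covered in D11-8 replicates 1 and 2. Elsewhere the medians were 558 and 578 bp in vehicle and 680 and 702 bp with D11-8. The number of summits inside domains was 9041 and 8564 in vehicle and 5639 and 4998 with D11-8.

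The strongest summit lay within 1000 bp of a protein-coding or lncRNA start in 70 of 215 domains in vehicle replicate 1 (32.6%) and in 127 of 215 in vehicle replicate 2 (59.1%). With D11-8 this was 149 of 209 (71.3%) and 148 of 206 (71.8%). The vehicle libraries differed here by more than vehicle replicate 2 differed from D11-8. Median fold enrichment of the strongest summit was 14.2 and 14.7 in vehicle and 35.6 and 24.1 with D11-8, and these ratios are relative to each library's own input.

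With D11-8, domain cover was partly lost and the extent differed widely between domains. Peaks covered 67.1% of domain bases in D11-8 replicate 1 and 58.5% in replicate 2, a mean of 62.8% ± 6.05 (SD, n = 2), and 56.0% of bases were covered in both. Per domain the median was 77.8% in replicate 1 and 64.5% in replicate 2, with quartiles of 40.1% and 96.2% in the first and 33.5% and 89.2% in the second. Both extremes occurred: 8 domains were covered to 100% in both D11-8 libraries, and 5 held no D11-8 peak in either. Replicate 1 covered more than replicate 2 in 187 domains and less in 15. In 163 domains vehicle replicate 2 covered more than either D11-8 library, and in 16 it covered less than either.

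Of the 215 domains, 131 (60.9%) kept 50% or more of their bases in peaks in both D11-8 libraries, and 12 (5.58%) kept under 10% in both. Over all 26980 vehicle replicate 1 regions of any length that passed the same overlap rule, 44.5% kept 50% or more and 43.5% kept under 10%. Domains were broken up rather than removed: a domain had a median of 2 pieces in vehicle replicate 2, 3 in D11-8 replicate 1 and 4 in D11-8 replicate 2, with up to 11, 25 and 30. Only 6 domains had no peak in D11-8 replicate 1 and 9 had none in replicate 2. The background is set by the 12648 regions under 1000 bp, of which 22.5% kept 50% or more. Of those from 1000 bp up to 5000 bp 63.7% did, and of those from 5000 bp up to 10000 bp 66.4%. From 10000 bp up to 20000 bp the share was 59.8%, so the domains' 60.9% was near that of shorter regions over 1000 bp. Under 10% in both D11-8 libraries were 66.2% of regions under 1000 bp and, in the next classes, 25.6%, 16.9% and 9.43%. With 5.58% the domains continued this fall with length. The bases kept in D11-8 replicates 1 and 2 were 30.6% and 24.4% under 1000 bp and, in the next classes, 72.3% and 67.8%, 67.1% and 59.6%, and 68.2% and 57.8%.

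**Figure D2:**
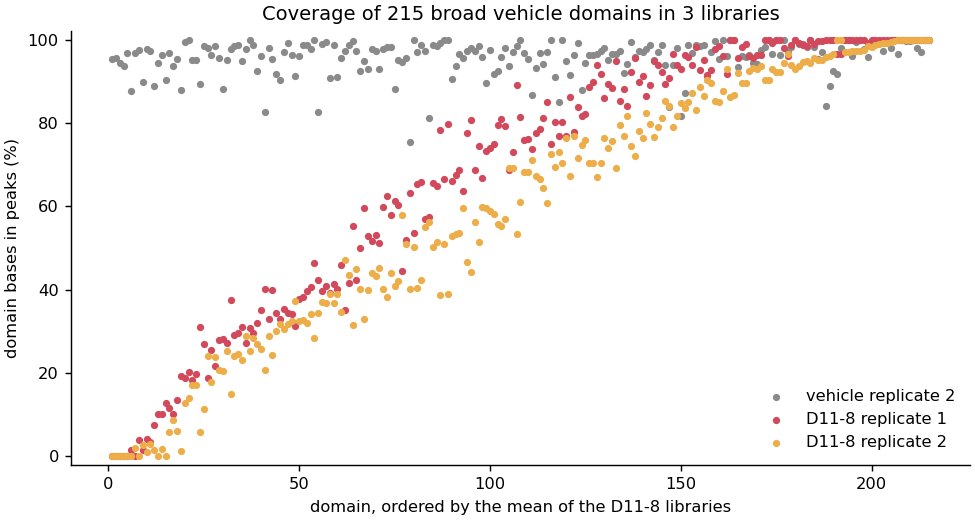
Percent of each domain's bases inside peaks (y axis) for the 215 domains, ordered by the mean of both D11-8 libraries (x axis), with a point per library. Vehicle replicate 2 stays between 75.3% and 100% throughout, while the D11-8 libraries run from 0% to 100%.

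What a domain kept went with the gene starts it held, and this was not particular to the domains. In replicated regions of 10000 bp up to 20000 bp with a protein-coding start, median cover was 89.3% and 76.5% in D11-8 replicates 1 and 2. In those without a start it was 49.4% and 30.3%. The 58 domains with no protein-coding start had a median cover of 36.4% and 25.6% in D11-8 replicates 1 and 2. With 1 start (66 domains) the medians were 74.3% and 54.2%, with 2 starts (46 domains) 89.0% and 72.2%, and with 3 or more (45 domains) 95.6% and 86.5%. The lowest domain with 3 or more starts was still covered to 64.9% and 51.0%. All 12 domains under 10% in both D11-8 libraries were among those without a protein-coding start, 20.7% of these domains. Shorter regions were alike: from 10000 bp up to 20000 bp, 23.4% without a start and 0.667% with a start were under 10% in both. Vehicle replicate 2 covered a median of 96.4% to 97.9% of the domains in every class of start number. Domain lengths were alike, with class medians of 25489 to 26272 bp. This grouping was chosen after the values were seen, and it depends on the annotation: with every annotated transcript start of protein-coding and lncRNA genes, 17 domains had no start, with medians of 29.5% and 24.7%, 4 of the 12 nearly lost domains were among them, and the 198 others had medians of 80.5% and 68.7%.

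**Figure D3:**
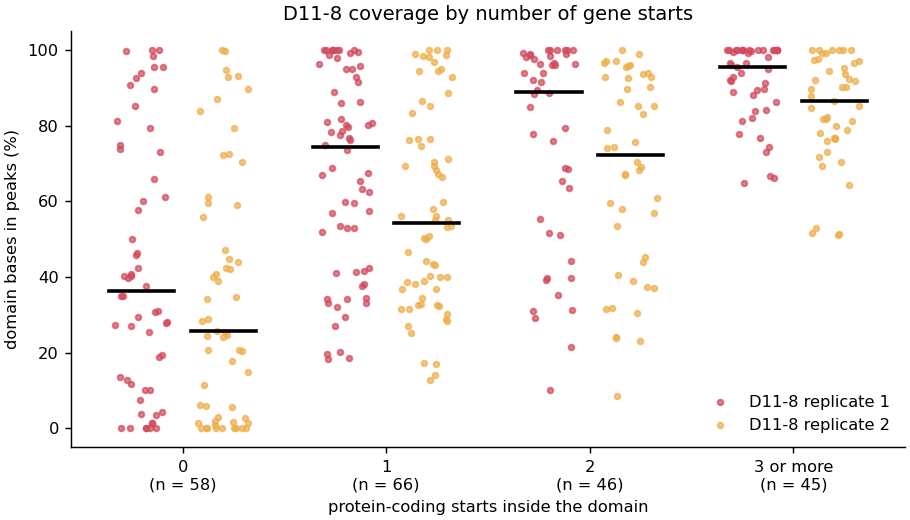
Percent of domain bases inside peaks (y axis) in D11-8 replicate 1 and D11-8 replicate 2 for domains with 0, 1, 2 or 3 or more protein-coding starts (x axis); each point is a domain and black bars are medians. The bars rise from 36.4% and 25.6% with no start to 95.6% and 86.5% with 3 or more.

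Several features varied together with the share kept, and their parts were not separated. Across the 215 domains, Spearman's rho with the mean D11-8 cover was 0.54 for the number of starts, 0.47 for GC content and -0.05 for domain length, and it was -0.44 for the length of the leading gene over 208 domains. GC content and number of starts were themselves related at 0.41. These are descriptions over domains of the same libraries. Domains under 25% mean cover had a median GC content of 42.7% (30 domains) and those at 75% or more had 51.9% (97 domains). Domain bases covered in both D11-8 libraries had a GC content of 51.0% and those covered in neither had 43.4%. Over 5000 bp from any protein-coding start the values were 49.2% and 43.1%. The domains as a whole had a median of 48.8%, and 130 of 215 exceeded their flanks of the same length.

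Position relative to gene starts showed the same pattern base by base. Within 1000 bp of the nearest protein-coding start, 98.2% and 96.9% of domain bases stayed in peaks in D11-8 replicates 1 and 2. At 2 to 5 kb the shares were 88.1% and 81.1%, at 5000 to 10000 bp 64.4% and 50.7%, and beyond 20000 bp 46.5% and 38.7%. Vehicle replicate 2 stayed between 94.9% and 99.4% at all distances. Replicated regions of 5000 bp or more but under 20000 bp had lower values at the same distances, 54.7% and 39.5% at 5000 to 10000 bp and 39.2% and 30.4% beyond 20000 bp. The domains thus retained some peaks far from starts, and only 47.5% and 52.0% of their remaining bases, 49.7% ± 3.21 (SD, n = 2) on average, lay within 5000 bp of a start, beside 34.3% of all domain bases.

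**Figure D4:**
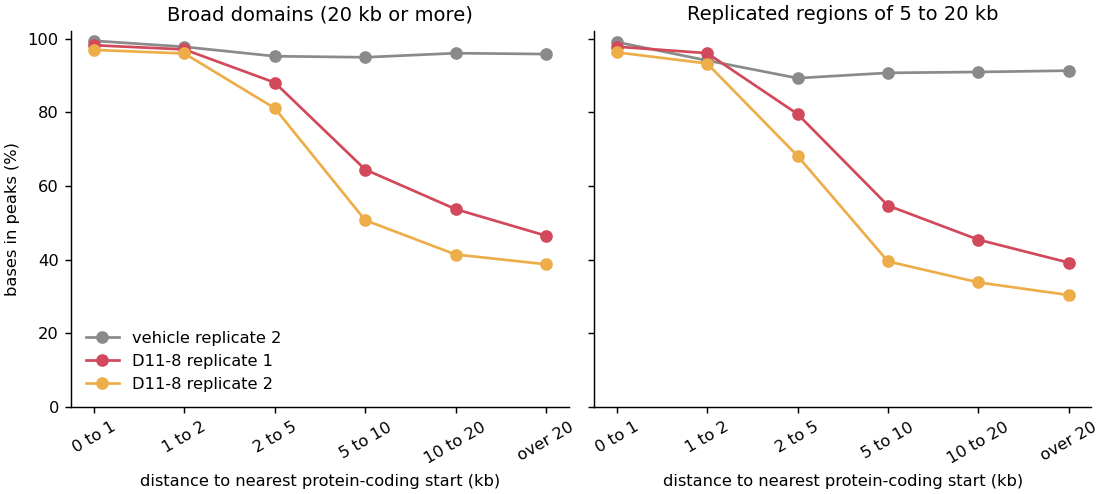
Percent of bases inside peaks (y axis) by distance to the nearest protein-coding start in kb (x axis), for the broad domains (left) and for replicated vehicle regions of 5 to 20 kb (right), in vehicle replicate 2 and both D11-8 libraries. The vehicle line stays flat, and the D11-8 lines fall from 98.2% and 96.9% to 46.5% and 38.7% in the domains.

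By median, the region over the leading start reached less far in the D11-8 libraries. Its reach was shorter in both D11-8 libraries than in both vehicle libraries in 80 of the 124 domains that held this start. Long vehicle reach follows in part from the choice by length and is a description. In the 48 domains whose single protein-coding start was that of the leading gene, this region reached a median of 23949.5 and 21986 bp downstream of the start in vehicle replicates 1 and 2, and 5607 and 5171 bp in D11-8 replicates 1 and 2. All of these domains kept a region over the start in every library, and in 36 of the 48 its reach was shorter in both D11-8 libraries. Farther along, cover fell to 53.8% and 42.6% at 10000 to 20000 bp downstream of the start and was 65.4% and 55.8% beyond 20000 bp, where 33 domains contributed. Past the leading gene's end, in 55 domains where no other protein-coding gene lay there, 57.8% and 51.0% of bases stayed in D11-8 peaks, beside 92.5% in vehicle replicate 2.

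The longest domains covered both outcomes. HNRNPC, whose protein packages nascent transcripts, had the longest at 76023 bp (chr14:21663449-21739471), with its upstream edge at -1818 bp from the start and its downstream edge 13846 bp past the end of this minus-strand gene. Vehicle replicate 2 covered 99.8% of it in 1 piece, and D11-8 replicates 1 and 2 covered 80.3% in 25 pieces and 70.4% in 30. It therefore kept most of its bases in both D11-8 libraries but not its continuity.

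The domain at TRIM13, a ubiquitin ligase gene, and KCNRG (chr13:50567257-50639331) was next in length at 72075 bp and runs through DLEU2. It was covered to 98.5% in vehicle replicate 2 and to 29.1% and 24.2% with D11-8. The neighbouring domain of 37247 bp, which held DLEU2 and DLEU1 only, was covered to 40.7% and 34.1%. By contrast MLPH, which encodes the transport adaptor melanophilin, had a domain of 62495 bp that was kept to 95.8% and 85.1%. The 2 domains of MIRLET7BHG, a host gene of let-7 microRNAs, measured 58777 and 27302 bp, were nearly adjacent and were kept to 100% and 99.7% and to 100% in both. They held no protein-coding start.

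The other long domains were intermediate or high. The domain at RBM4 and RBM14, RNA-binding protein genes, had 92.2% and 74.5% of its bases in D11-8 peaks. CHD2, a chromatin remodeller, had 98.0% and 94.4%. BCAR3, a signalling adaptor, had 73.9% and 59.0% in a domain that held the gene's end without its start. EHF, an epithelial ETS transcription factor, had 41.0% and 36.8%. ANKRD30A, a breast differentiation antigen, carried 2 domains separated by 184 bp: the domain inside the gene was covered to 92.7% and 89.7% and the domain over its end to 60.2% and 42.1%. In each of these long domains vehicle replicate 2 cover was 95.2% or more.

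**Figure D5:**
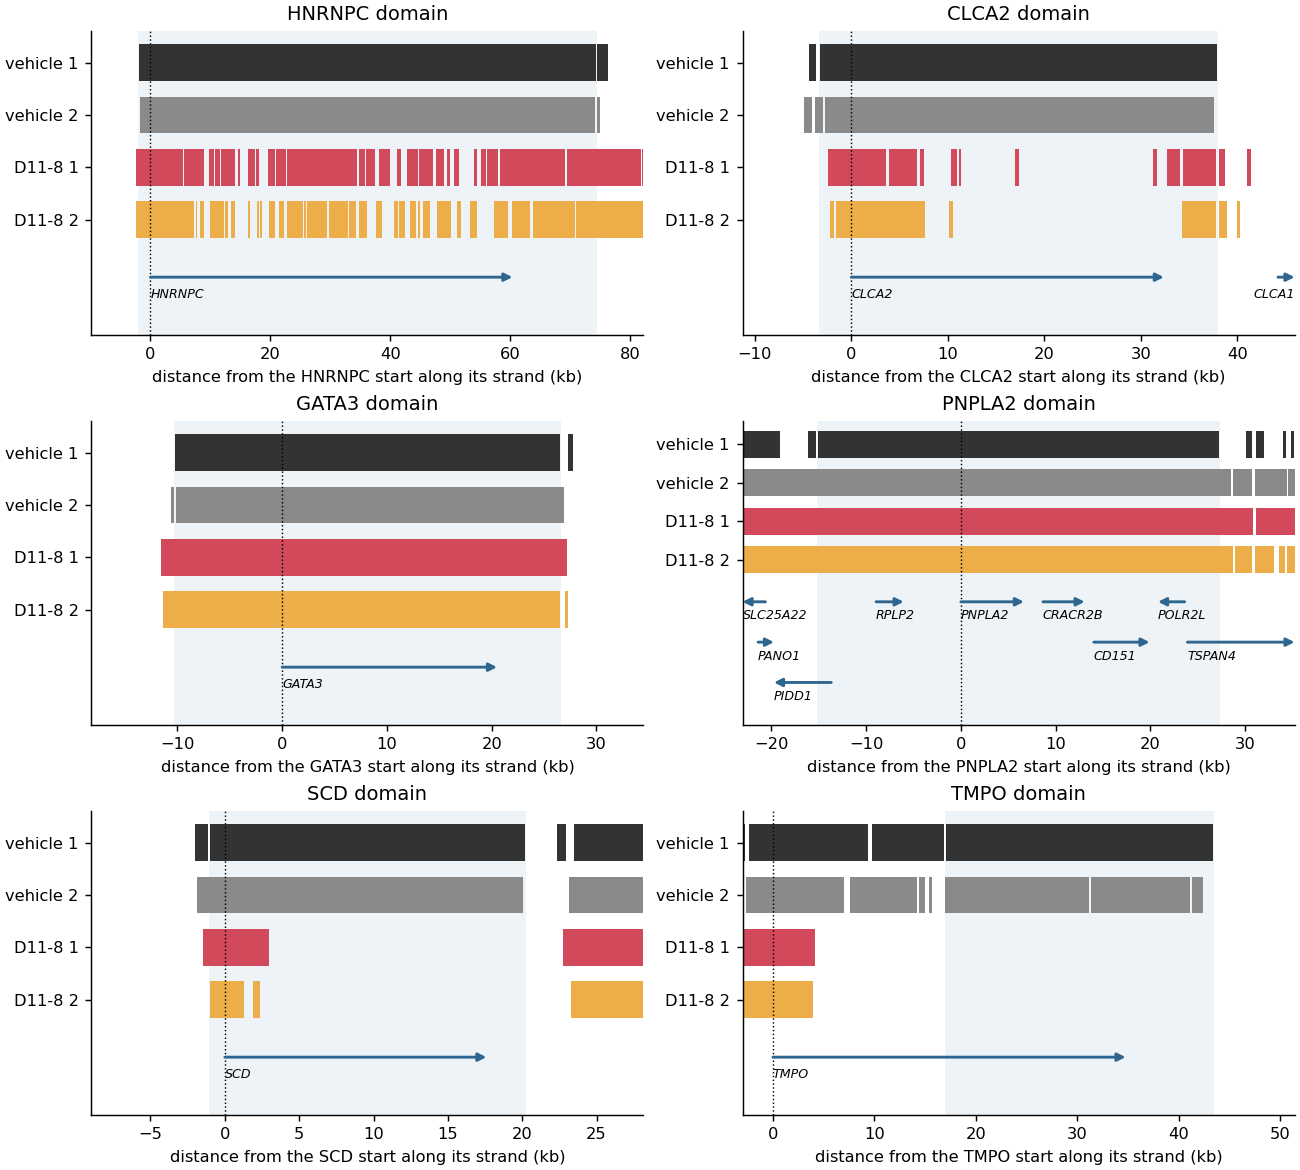
Regions of each library (filled blocks, rows) in 6 domains by distance in kb from the leading gene's start along its strand (x axis); the shaded band is the domain, the dotted line the start and arrows are protein-coding genes. HNRNPC is fragmented with D11-8 (80.3% and 70.4% kept), CLCA2 (38.2% and 32.6%) and SCD (18.7% and 12.9%) keep a region over their starts, GATA3 and PNPLA2 stay whole at 100%, and the TMPO domain, which begins 17033 bp past the start, holds no D11-8 region.

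Among domains with a protein-coding gene, 7 were covered to 100% in both D11-8 libraries. The 4 longest spanned PNPLA2 with CD151, RPLP2 and 4 other genes on chromosome 11 (42275 bp), GATA3 (36702 bp), the HOXC cluster from HOXC6 to HOXC11 (31648 bp) and the histone genes H3C8, H2BC10 and H4C8 (25489 bp). GATA3, a transcription factor of luminal breast cells, had a single protein-coding start over 36702 bp (chr10:8086441-8123142), and 2 of the 7 domains, at GATA3 and FGFR4, had 1 start. The other domains of the 4 longest held 3 to 7 starts each. In GATA3 the region over the start reached 26491 and 26942 bp downstream in vehicle and 27210 and 26530 bp with D11-8, a difference within that between replicates.

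The 5 with the lowest cover held no D11-8 peak in either library, although vehicle replicate 2 covered 93.7% to 96.8% of them. They lay at TEX9 (32739 bp), TMPO, which encodes a nuclear lamina protein (26384 bp), CYP4B1, a cytochrome P450 (23065 bp), OIP5, which shares its domain with the unnamed gene ENSG00000285920 (22308 bp), and LGALS8, a galectin, with HEATR1 (20227 bp). None held a protein-coding start. Their upstream edges were 136348, 17033, 17326, 20412 and 17389 bp downstream of the leading gene's start. In 4 of the 5 the domain ran over the gene's end, by 8655 bp at TMPO and 20023 bp at CYP4B1. The CYP4B1 domain covered only 14.9% of that gene, so most of it lay beyond the gene's 3′ end. At TMPO both D11-8 libraries kept a region over the gene's start, outside the domain. At OIP5 the domain lies within the lncRNA gene OIP5-AS1, which had 85.6% and 80.7% of its bases in peaks in vehicle and 9.33% and 6.96% with D11-8.

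The 7 domains that touched 6 or 7 protein-coding genes had 51.3% or more of their bases in peaks in each D11-8 library. Besides the PNPLA2 domain with 7 genes, the domain of P4HTM, WDR6 and IMPDH2 on chromosome 3 touched 7 and was covered to 88.1% and 76.8% with D11-8. The histone cluster on chromosome 1 (HIST2H2AA3 with 5 other genes) was covered to 100% and 97.5%, and that of H2BC6, H2AC7, H3C4, H4C5 and H4C4 on chromosome 6 to 100% and 99.4%. The domain of GATC, SRSF9, COX6A1, TRIAP1 and DYNLL1 on chromosome 12 had 74.5% and 51.3%. The domains of LBHD1 and of BAG6, also with 6 genes each, had 77.8% and 76.8% and 93.0% and 84.7%. Histone gene starts lay in 6 domains in all, which held the starts of 24 of 71 annotated genes with histone symbols. The lowest cover of these domains was 99.1% in D11-8 replicate 1 and 95.2% in replicate 2. Without the histone domains, the 40 others with 3 or more starts had medians of 93.4% and 83.5%.

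Protein-coding genes had their start inside a domain in 1.65% of cases (328 of 19834), lncRNA genes in 1.04%, and protein-coding genes with a peak at the promoter in both vehicle libraries in 3.27% (327 of 9997). Over the 328, the median gene had 100% of its bases in peaks in D11-8 replicate 1 and 91.2% in replicate 2. Full cover of a gene named below was thus common among genes that start in a domain. Against the shares of starts the gene lists varied. Of 24 SR and hnRNP splicing genes, 10 (41.7%) started inside a domain. HNRNPA1 and HNRNPL had 100% of the gene in D11-8 peaks in both libraries, while TRA2B had 44.4% and 42.0% and SRSF7 54.4% and 70.3%. In the luminal and apocrine list 7 of 32 (21.9%) did. SPDEF, an epithelial transcription factor, kept 100% and 88.7% of the gene, TFAP2A 92.8% and 88.6%, TFAP2B 58.6% and 46.2%, and CLCA2, an apocrine marker, 26.7% and 24.8%.

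Metabolic genes fell on both sides. In the glycolysis and lipid synthesis list 4 of 23 (17.4%) started inside a domain. FASN, which builds fatty acids, kept 100% of the gene in both D11-8 libraries. SCD, which desaturates them, kept 16.9% and 10.0%, although both genes had 100% of their bases in peaks in both vehicle libraries. ENO1, a glycolytic enzyme gene, kept 85.9% and 40.9%. In the SCD domain, 21132 bp long, cover was 99.4% in vehicle replicate 2 and 18.7% and 12.9% with D11-8, and the region over the start reached 20159 and 20034 bp in vehicle and 2980 and 1293 bp with D11-8.

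Of the translation and ribosome list 5 of 21 (23.8%) started inside a domain, with TPT1 and RACK1 at 100% in both D11-8 libraries and RPS3 at 76.6% and 38.7%. Of the chaperone and ER stress list 4 of 21 (19.0%) did: HSPA1A, HSPA1B and CALR stayed at 100%, and DDIT3 had 100% and 96.4%. HSPA1A and HSPA1B are near-identical copies, as are several clustered histone genes, so reads may not be assigned between them with certainty. Of the ERBB and PI3K list 2 of 23 (8.70%) did, MIEN1 and FGFR4, both at 100%. ERBB2 itself lay to 74.5% in a domain that missed the start of the gene's longest isoform, the only start counted here. Of this gene 87.4% and 81.3% lay in vehicle peaks and 78.0% and 45.5% in D11-8 peaks. In the immediate early list IER3 and MCL1 (2 of 26, 7.69%) stayed at 100%. Of 18 nuclear and host lncRNA genes 4 (22.2%) did, with NEAT1 at 100% and 98.9% and GAS5 at 99.3% and 85.0%.

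In the remaining lists the shares ran from 0% to 18.2%. Of 35 elongation control genes, 1 (2.86%) started in a domain: BRD2, with 100% and 95.5% of the gene kept. The 22 listed replication-dependent histone symbols were older and current names of 11 genes. All 11 were found in the annotation under their current names, and 2 of these (18.2%) started in a domain, H2BC12 and H4C8. None of 20 basal and mesenchymal genes and none of 29 G2/M and E2F genes did. CDK9 was in no domain and had 79.5% and 90.7% of its bases in vehicle peaks and 95.1% and 85.3% with D11-8. CENPF, a kinetochore gene, had 31.0% and 34.9% in vehicle and 7.67% and 3.31% with D11-8. E2F2 had 91.3% and 58.0% in vehicle and 19.1% and 16.1% with D11-8, and MYC had 67.1% and 57.3% and then 43.8% and 39.9%. Neither was in a domain. MCL1, an anti-apoptotic gene, lay wholly in a domain of 24862 bp that was kept to 99.6% and 95.1%.

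FOXA1, ERBB2, KRT8, KRT18 and SPDEF, markers of luminal and apocrine cells, had a promoter peak in both vehicle libraries. KRT5, KRT14, TP63, VIM, ESR1 and PGR, markers of basal or mesenchymal cells or of hormone receptor-positive tumours, had none in either. Over the whole luminal and apocrine list 22 of 32 genes had a promoter peak in both vehicle libraries and 9 had none in either, among them the epithelial genes EPCAM and MUC1 and the secretory genes AGR2, TFF3 and SCGB2A2. Over the basal and mesenchymal list 1 of 20 had, ZEB1, and 19 had none. Only the start of the longest isoform counted as promoter, so a peak at another start was not counted. Of the 9 luminal and apocrine genes, CLDN4 had 93.8% and 86.7% of the gene in peaks in vehicle replicates 1 and 2. EPCAM had 31.0% and 21.8%, AGR2 25.1% in both and ACSM3 3.95% and 3.79%. KRT23, MUC1, TFF3, SCGB2A2 and UGT2B28 had 0% in both. RNAPII at a promoter is not a measure of protein.

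On both sides of the length limit D11-8 cover ran from low to 100%. The 5 shortest, of 20082 to 20227 bp, lay at FGFR4 (100% in both D11-8 libraries), WSB2 (1.46% and 0%), HYPK (96.6% and 100%), SPATA24 (66.7% and 51.0%) and LGALS8 (0% in both). The 5 longest regions below the limit, of 19765 to 19986 bp, lay at PRDX1 (28.1% and 26.3%), at a stretch with no protein-coding gene on chromosome 11 (99.0% and 97.3%), at TRIM28 (100% in both), at POLG (62.7% and 41.5%) and at the unnamed gene ENSG00000285043 (100% in both).

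The number of regions of 20000 bp or more was 277 in vehicle replicate 1, 196 in vehicle replicate 2, 137 in D11-8 replicate 1 and 60 in D11-8 replicate 2. These counts did not overlap between groups, but their shares of all regions in each list did. The shares were 0.354% and 0.341% in vehicle replicates 1 and 2, and 0.529% and 0.275% in D11-8 replicates 1 and 2. The mean counts were 236.5 ± 57.3 and 98.5 ± 54.4 (SD, n = 2 each). Their difference of 138 had p = 0.333 by an exact two-sided permutation test, the smallest p that 2 libraries against 2 allow. Broad regions also existed with D11-8: the same rule on the D11-8 lists gave 97 domains, of which 53 touched a vehicle domain and 48 had 50% or more of their bases in one.

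Measuring each library's broad regions in the other 3 libraries showed an asymmetry that the choice of members does not enter. The lists themselves differed in the bases they covered, with 108.5 and 87.3 Mb in vehicle replicates 1 and 2. D11-8 replicates 1 and 2 covered 67.7 and 54.6 Mb, and the part of list size in the asymmetry was not tested. The 277 regions of vehicle replicate 1 were covered to 95.1% in vehicle replicate 2 and to 56.0% and 48.0% in the D11-8 libraries, a difference of 43.1 percentage points. The 196 regions of vehicle replicate 2 were covered to 98.2% in vehicle replicate 1 and to 70.0% and 61.8% with D11-8, a difference of 32.2. In the other direction, the 137 regions of D11-8 replicate 1 were covered to 90.04% in D11-8 replicate 2 and to 84.7% and 86.9% in vehicle, and the 60 of D11-8 replicate 2 to 99.5% in D11-8 replicate 1 and to 91.3% and 91.8% in vehicle, so that vehicle minus D11-8 was -4.26 and -7.97 points. Most bases of broad D11-8 regions were thus in vehicle peaks as well, while the share was 48.0% to 70.0% for broad vehicle regions in D11-8 peaks. Each of these 4 differences had p = 0.333 by the exact two-sided permutation test of 1 library against 2, the smallest possible, and 0.333 after Benjamini-Hochberg adjustment over the 5 tests.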

How the data were processed

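RNAPII was immunoprecipitated from MDA-MB-453 cells and sequenced, and the peak lists of 4 libraries were analysed. According to the methods reads were mapped by the authors with Bowtie 2 on build GRCh37 (hg19), and the authors called peaks with MACS2 in each library against its paired input, without pooling replicates. DiffBind and deepTools are also named in the submitters' processing notes. Tool versions were not given in the sources used here. The 4 input libraries entered no comparison here. The deposited pileup is a signal, the fragment coverage at a summit. The deposited fold enrichment is the ratio between pileup and local background, for which each library's paired input was the control. The deposited q-value is on the −log10 scale, and its lowest value was 2.00 in every list. The lists held 78306 and 57493 regions in vehicle and 25897 and 21842 with D11-8. They give no read counts. The methods state a minimum of reads per library, but the depth of each library is unknown, and how many and how broad regions are can depend on it.

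Rows were joined into unique regions by chromosome, start and end. Positions of 19834 protein-coding and 18702 lncRNA genes came from GENCODE release 44 mapped to GRCh37, with the longest isoform of each gene. Covered percent is the share of bases inside any region of a library. Domains named are the 10 longest, the 5 with the highest and the 5 with the lowest D11-8 cover, the 5 on each side of the length limit, the domains with most protein-coding genes (7 with ties) and up to 4 genes of each list that start in a domain; TRPS1, PCBP2, ERBB2, OIP5-AS1 and the DLEU2 neighbour were added after their values were seen. Some items that these rules name are not reported here. The members and the gene lists were chosen with earlier results of these data known. Library values were compared by exact two-sided permutation tests. The Python code (Python 3.11.15, numpy, pandas, scipy) was tested on simulated regions. Alternatives covered the length limit, the overlap rule, the peak threshold, joining of neighbouring regions, the annotation and single libraries.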

Additional observations from a re-analysis of the deposited data

How the results depend on the processing

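The number of domains was 947, 70 and 8 with length limits of 10000, 30000 and 50000 bp, 130 with 80% overlap and 706 after regions within 1000 bp were joined. The percent of domain bases in D11-8 peaks, 62.8%, was 72.4% with 80% overlap. It was 53.9% when vehicle replicate 2 regions counted together, 46.9% after joining, and 58.5% to 67.1% with either D11-8 library left out. The share of domains with a protein-coding start was 73.0% (95% Wilson interval 66.7% to 78.5%). This interval treats domains as independent, although some lay as close as 184 bp, and it does not measure a spread between libraries. The share was 64.1% and 62.5% with limits of 10000 and 50000 bp, and 80.0% with 80% overlap. With lncRNA genes it was 82.3% and with every transcript start 87.4%. The share of remaining bases near a start, 49.7%, was 57.0%, 41.9% and 16.4% with limits of 10000, 30000 and 50000 bp, 58.6% with lncRNA genes, 65.8% with every transcript start, and 26.6% and 65.6% within 2 and 10 kb, and 47.5% to 52.0% with either D11-8 library left out. The remaining settings included exchanged vehicle libraries (179 domains, 65.3% kept) and 50% overlap of both vehicle regions (213 domains, 62.4% kept). The others were a vehicle replicate 2 region of any length, a −log10 q of 5 or more, and equal list sizes. All of these remaining settings left the percent of bases in D11-8 peaks and the share near a start within the spread between D11-8 replicates. The count stayed within 1.5 times and the start share inside its interval. The q and list size settings drop whole regions by their best summit and shorten none. Under both, the 215 domains and their start share were unchanged, so these 2 values were not tested by them. Vehicle replicate 2 regions of any length gave the same domains and changed no value, so that setting tested none.

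The difference in broad regions was 97.5 to 178.5 with any library left out, 507 at 10000 bp, 588.5 after joining, and 6.5 at 50000 bp with an exact permutation p of 0.667. With same-numbered libraries paired (replicate block) it was 138, with an exact sign-flip p of 0.5, the smallest 2 pairs allow, and the pair differences were 140 and 136. The sources do not say that a number marks the same passage in both groups, and deviations of same-numbered libraries correlated at -0.07 over 12572 genes, so the unpaired value is the one reported. For the regions of vehicle replicate 1, for which alone alternatives were run, the held-out difference of 43.1 percentage points ran from 38.2 to 61.3 over the other length limits, the stricter q, equal list sizes and either D11-8 library left out (39.2 to 47.1). No alternative can reach a p under 0.333. What limits these data is that each library's depth is unknown and a stretch below the threshold of a shallower library counts as lost.
The counts of domains without a start under added lncRNA and transcript starts were alternatives chosen after seeing the data.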
